A study of Homo sapiens with 21 samples.

Results

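The 9 genes described here are the endocrine progenitor genes NEUROG3, NEUROD1, INSM1, SOX4, HES6, DLL1, DLL4, NHLH1 and AMOTL2. They were chosen by name, and all 9 were found by symbol among the 62699 genes of the deposited count table. The study asked what the LIM-homeodomain factor ISL1 does when it is supplied from a lentivirus to islet cells made from H1, an established line of human embryonic stem cells. Transduction was on day 11 of differentiation, and the cells that fluoresced blue were sorted and harvested on day 18, so every library comes from sorted, transduced cells. The 8 groups combine 4 genotypes (WT, ISL1-/-, PAX6-/- and PDX1-/-) with 2 vectors: blue fluorescent protein alone, called BFP-labelled below, or ISL1 together with that protein, called ISL1-labelled. There were 3 libraries in 5 groups and 2 libraries in 3 groups (WT with either vector, and PDX1-/- ISL1-labelled), 21 in all. The labels do not say whether a knockout line is 1 clone or whether replicates came from separate differentiations, so p-values measure the spread between these libraries, which may be technical.

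Endocrine cells of the pancreas arise from progenitors that switch on NEUROG3 for a short time. NEUROG3, a basic helix-loop-helix factor, activates NEUROD1, INSM1 and other endocrine factors, and the same cells display Delta ligands that signal to neighbours through Notch receptors, whose targets such as HES1 hold NEUROG3 down. SOX4 acts with NEUROG3 in this step, HES6 is a HES-family protein that opposes HES1, and NHLH1 is a neuronal relative of NEUROD1, which stays on in mature islet cells. AMOTL2 is an angiomotin, a scaffold that restrains the Hippo-pathway coactivators YAP1 and TAZ.

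Libraries held 36.8 to 60.2 M (mega) counts assigned to genes (median 50.4 M). Levels are given as CPM, the counts scaled to a library total of 1000000. The ISL1 gene was at 71.6 to 96.8 CPM in the 6 libraries labelled ISL1-/- and at 306 to 519 in the 4 WT libraries. It did not separate the vectors: within WT it was at 306 and 519 in the BFP-labelled and 361 and 338 in the ISL1-labelled libraries, so the vector is taken from the label alone. PAX6 levels in PAX6-/- libraries overlapped those of WT with either vector. PDX1 levels in PDX1-/- libraries overlapped those of WT with the ISL1 vector and lay above them with the BFP vector (log2 difference 0.29, edgeR adjusted p = 0.541). Neither gene checks these labels. The libraries labelled PAX6-/- ISL1-labelled replicate 3 and PDX1-/- ISL1-labelled replicate 4 stood apart, with 3.165% and 3.843% of counts from mitochondrial genes against 1.276 to 1.926% in the other 19 libraries. Some results for the 9 genes are also given without them. Differences in other genes are given only with them. For the vector in PDX1-/- cells those differences rest on 2 ISL1-labelled libraries, replicate 4 among them. All 9 genes passed the filter on low counts. NHLH1 was the weakest, with 5 to 117 counts a library.

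**Figure D1:**
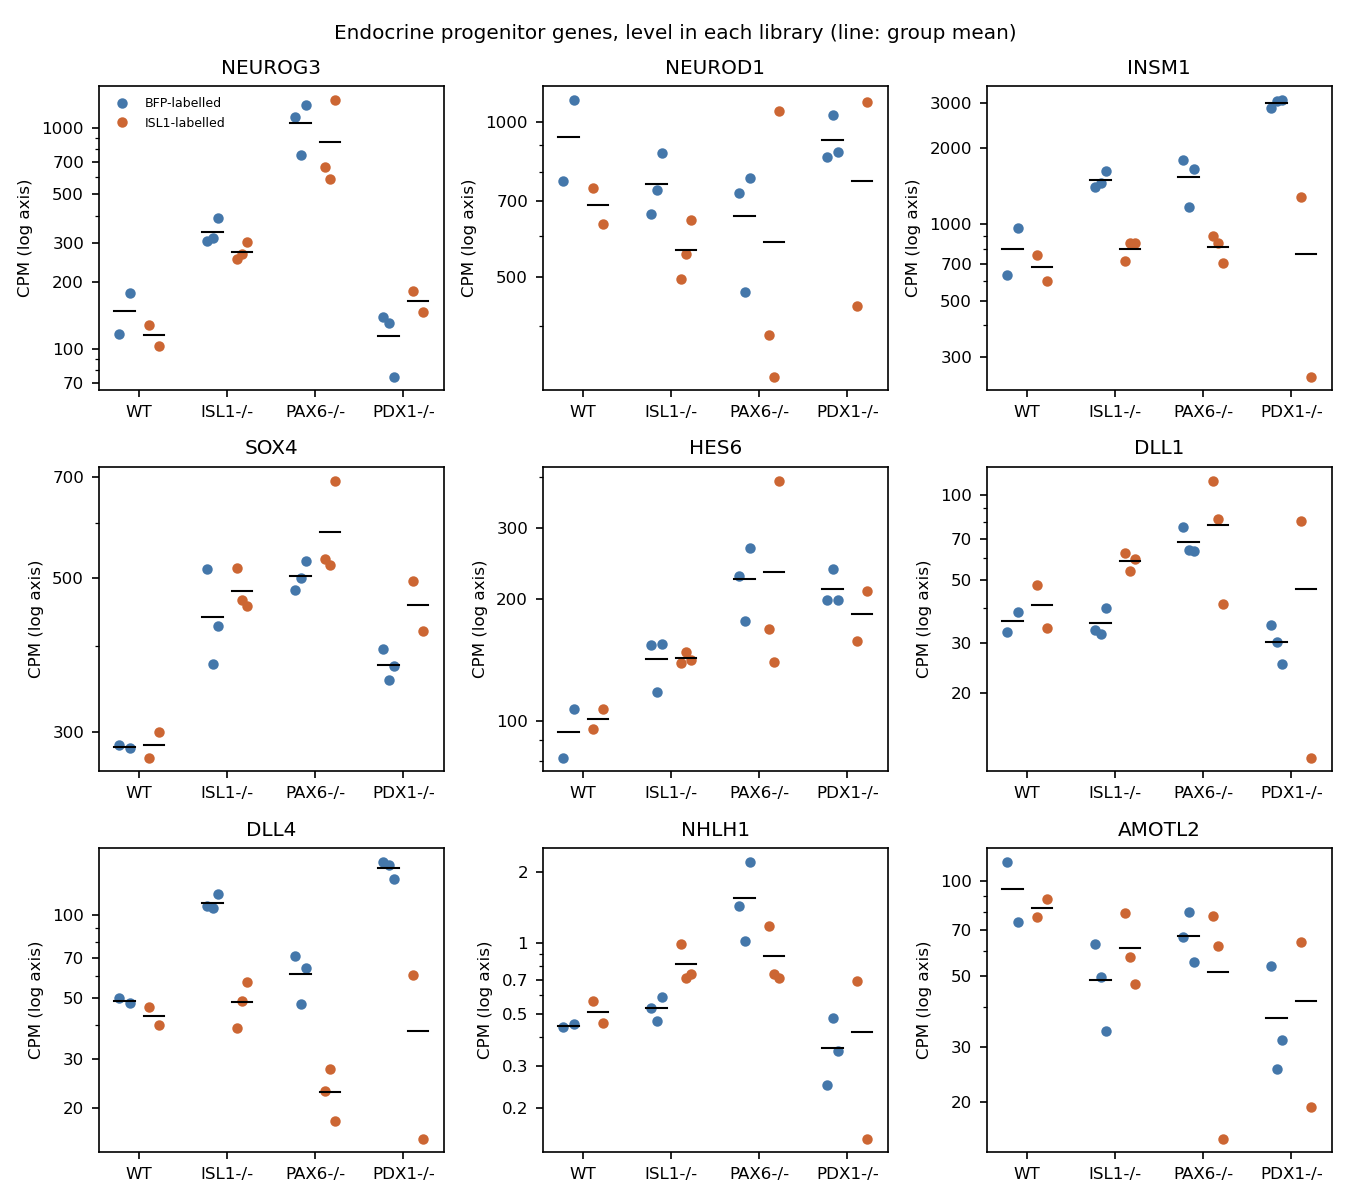
Level of each of the 9 genes in every library, in CPM on a log axis, by genotype (x axis) and vector (blue, BFP-labelled; orange, ISL1-labelled); horizontal lines are group means. NEUROG3 lies between 584 and 1338 CPM in the 6 PAX6-/- libraries and at 391 CPM or below in the other 15, and DLL4 is highest in the PDX1-/- BFP-labelled libraries at 135 to 156 CPM.

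Which of the genes differed among the 8 groups at all was asked first. NEUROG3, INSM1, SOX4, HES6, DLL4 and NHLH1 did, with NEUROG3 highest in PAX6-/- cells and INSM1 and DLL4 highest in PDX1-/- BFP-labelled cells. NEUROD1, DLL1 and AMOTL2 did not pass the test. These 6 of 9 genes compare with 22.5% of the 25884 genes tested (edgeR's quasi-likelihood F test, Benjamini-Hochberg adjusted p under 0.05, used throughout). More of the 9 passed when the 2 libraries with high mitochondrial share were left out. That fit leaves a single PDX1-/- ISL1-labelled library, and its share of all genes called is not given here. The 9 genes did not move as 1 block: the ratio of the highest to the lowest group mean was 9.17 for NEUROG3, 6.46 for DLL4, 4.44 for INSM1 and 1.66 for NEUROD1. In bulk RNA a change in the number of cells of a type and a change in RNA per cell cannot be told apart.

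NEUROG3 (ENSG00000122859.5, GRCh38 chr10:69571698-69573422, minus strand) marked PAX6-/- cells. In BFP-labelled libraries it was at 117 and 178 CPM in WT, at 306, 317 and 391 in ISL1-/-, at 1124, 752 and 1274 in PAX6-/- and at 139, 130 and 74.7 in PDX1-/-. In ISL1-labelled libraries it was at 128 and 102 in WT, at 254, 267 and 303 in ISL1-/-, at 663, 584 and 1338 in PAX6-/- and at 183 and 147 in PDX1-/-. With either vector PAX6-/- was highest and ISL1-/- next, and neither overlapped another genotype. WT and PDX1-/- overlapped with the BFP vector and not with the ISL1 vector, where their difference missed the threshold (edgeR adjusted p = 0.477). NEUROG3 shares 139 exonic bases with the opposite-strand gene ENSG00000236154, which held 168 to 1290 counts against 3420 to 67363 for NEUROG3.

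NEUROG3 rose in PAX6-/- against WT by 2.83 on the log2 scale with the BFP vector (SE 0.39, 7.12-fold, edgeR adjusted p = 0.000467) and by 2.90 with the ISL1 vector (SE 0.39, 7.48-fold, adjusted p = 0.000425). Leaving out any 1 of the 21 libraries kept both calls. The ISL1-labelled difference was 2.42 (adjusted p = 2.58e-05) without the 2 high-mitochondrial libraries, and had an adjusted p of 0.107 when only its own 5 libraries were fitted. In ISL1-/- cells the difference from WT was 1.20 with the BFP vector (SE 0.36, adjusted p = 0.0582) and 1.25 with the ISL1 vector (SE 0.36, adjusted p = 0.0597), which missed the threshold although the libraries did not overlap. It passed in both without the 2 high-mitochondrial libraries (1.21, adjusted p = 0.00197, and 1.24, adjusted p = 0.0022).

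The knockouts also differed from each other in NEUROG3, in comparisons added after the values were seen. With the BFP vector PAX6-/- exceeded ISL1-/- by 1.64 (SE 0.31, edgeR adjusted p = 0.00672) and PDX1-/- by 3.20 (SE 0.33, adjusted p = 3.08e-05), and PDX1-/- was below ISL1-/- by a log2 difference of -1.56 (SE 0.31, adjusted p = 0.00685). Leaving out any 1 library kept all 3 calls. Per kilobase of exon NEUROG3 averaged 673 CPM in PAX6-/- BFP-labelled cells, above SOX4 at 103 and NEUROD1 at 79.9, whereas in WT BFP-labelled cells it was at 94.5, beside NEUROD1 at 113.9. The lengths are all exonic bases of the count table's gene models, 1560 for NEUROG3, 4869 for SOX4 and 8208 for NEUROD1. A gene whose transcripts are shorter than its model is understated, so the order between genes is uncertain.

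NEUROG3, SOX4, HES6 and NHLH1 were the 4 genes that rose in PAX6-/- BFP-labelled cells, and their promoters are shown because these genes share that direction. Each is the stretch from 250 bases before to 50 after the RefSeq start (assembly GRCh38.p14), written 5′ to 3′ along the gene, with every E-box, the sequence CANNTG read on both strands and bound by helix-loop-helix factors, in capitals. They lie at chr10:69573373-69573672 (minus strand), chr6:21593501-21593800 (plus), chr2:238239989-238240288 (minus) and chr1:160366821-160367120 (plus).
NEUROG3: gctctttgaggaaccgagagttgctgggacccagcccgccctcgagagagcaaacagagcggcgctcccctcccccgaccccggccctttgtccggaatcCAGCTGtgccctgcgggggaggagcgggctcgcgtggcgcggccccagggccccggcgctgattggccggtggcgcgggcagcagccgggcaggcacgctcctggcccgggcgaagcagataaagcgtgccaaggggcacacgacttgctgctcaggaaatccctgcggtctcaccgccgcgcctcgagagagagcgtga
SOX4: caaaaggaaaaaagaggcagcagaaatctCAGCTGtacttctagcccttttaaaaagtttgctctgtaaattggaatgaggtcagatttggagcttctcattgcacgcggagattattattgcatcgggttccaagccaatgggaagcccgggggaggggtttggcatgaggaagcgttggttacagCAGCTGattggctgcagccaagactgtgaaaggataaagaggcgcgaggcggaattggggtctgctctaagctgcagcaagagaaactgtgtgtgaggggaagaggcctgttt
HES6: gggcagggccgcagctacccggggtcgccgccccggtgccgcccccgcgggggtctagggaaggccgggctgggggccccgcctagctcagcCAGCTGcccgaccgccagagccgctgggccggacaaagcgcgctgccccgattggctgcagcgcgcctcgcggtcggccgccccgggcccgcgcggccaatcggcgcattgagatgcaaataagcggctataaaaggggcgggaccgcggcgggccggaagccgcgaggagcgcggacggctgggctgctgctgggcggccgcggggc
NHLH1: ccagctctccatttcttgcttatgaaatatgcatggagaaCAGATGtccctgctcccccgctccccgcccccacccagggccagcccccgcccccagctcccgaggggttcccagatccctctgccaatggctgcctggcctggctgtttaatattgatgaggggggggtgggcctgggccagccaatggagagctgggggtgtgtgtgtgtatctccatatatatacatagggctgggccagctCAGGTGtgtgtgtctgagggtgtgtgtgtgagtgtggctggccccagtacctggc
The E-box was CAGCTG in NEUROG3 (at position -150, counted from 0 at the start), in HES6 (-158) and at both places in SOX4 (-221 and -63), and CAGATG and CAGGTG in NHLH1 (-210 and -5). E-boxes are common: 68.7% of the 35116 RefSeq promoter windows of this length hold at least 1, and 36.4% hold 2 or more. The windows of DLL4, NEUROD1 and AMOTL2 hold none, and INSM1 and DLL1 have no window. The part of E-boxes in these rises was not tested. Of the 9 genes 7 matched an entry of this table. The RefSeq start used for HES6 lies 624 bases inside the start of the count table's gene model. That used for NEUROD1 lies 310 bases inside, and those of AMOTL2 lie 62 and 1032 bases inside.

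NEUROD1 (ENSG00000162992.5, chr2:181668295-181680827), the partner factor that follows NEUROG3, was called in no comparison. In BFP-labelled libraries it was at 766 and 1103 CPM in WT, 662, 737 and 868 in ISL1-/-, 726, 466 and 776 in PAX6-/- and 855, 1030 and 875 in PDX1-/-. In ISL1-labelled libraries it was at 742 and 633 in WT, 493, 553 and 644 in ISL1-/-, 385, 319 and 1049 in PAX6-/- and 439 and 1092 in PDX1-/-. The 2 highest ISL1-labelled values are those of the 2 libraries with high mitochondrial share. Without these libraries NEUROD1 was below WT in PAX6-/- ISL1-labelled cells (log2 difference -0.98, edgeR adjusted p = 0.00565), and was lower with the ISL1 vector in PAX6-/- cells (log2 difference -0.91, edgeR adjusted p = 0.0154) and in PDX1-/- cells (-1.04, adjusted p = 0.0191), where a single ISL1-labelled library is left and is assumed to vary like the other groups. NEUROG3 was 7.12-fold higher than in WT in PAX6-/- BFP-labelled cells, where the NEUROD1 ratio to WT was 0.702 (edgeR adjusted p = 0.584). NEUROD1 did not pass for any difference among the 8 groups (edgeR F test, adjusted p = 0.617), so no order of it over the groups is established.

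NHLH1 (ENSG00000171786.6, chr1:160367071-160372846) reached 1.43, 1.02 and 2.21 CPM in PAX6-/- BFP-labelled libraries, against 0.440 and 0.453 in WT, 0.531, 0.468 and 0.591 in ISL1-/- and 0.249, 0.482 and 0.350 in PDX1-/-. The PAX6-/- libraries lay above all other BFP-labelled ones. With the ISL1 vector it was at 0.567 and 0.459 in WT, 0.995, 0.715 and 0.738 in ISL1-/-, 1.18, 0.742 and 0.713 in PAX6-/- and 0.688 and 0.148 in PDX1-/-. The rise over WT was 1.79 (SE 0.50, edgeR adjusted p = 0.0438). It was lost without PAX6-/- BFP-labelled replicate 1 or 3 or either WT library (adjusted p up to 0.287), was kept in 6 of the 21 fits that left out 1 library, and had an adjusted p of 0.0615 with no filter on low counts. Against PDX1-/- the rise was 2.09 (SE 0.43, adjusted p = 0.011), lost without PAX6-/- replicate 3 or PDX1-/- replicate 1 or 3 (adjusted p up to 0.0624).

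HES6 (ENSG00000144485.11, chr2:238238267-238240662) was lowest in WT. Its BFP-labelled values were 81.4 and 107 CPM in WT, 154, 118 and 156 in ISL1-/-, 229, 176 and 267 in PAX6-/- and 199, 237 and 199 in PDX1-/-, and its ISL1-labelled values were 95.5 and 107.5 in WT, 139, 148 and 142 in ISL1-/-, 169, 140 and 392 in PAX6-/- and 158 and 210 in PDX1-/-. Each WT library was below every knockout library with the same vector. HES6 rose in PAX6-/- (1.25, SE 0.34, edgeR adjusted p = 0.0398) and PDX1-/- BFP-labelled cells (1.17, SE 0.34, adjusted p = 0.038). Both calls sat near the threshold: the first was lost without PAX6-/- replicate 1 or 3 or either WT library (adjusted p up to 0.333), the second without any 1 of its own 5 libraries (adjusted p up to 0.338). Without the 2 high-mitochondrial libraries the adjusted p was 5.1e-05 in PAX6-/- and 6.9e-05 in PDX1-/-, and HES6 also passed in ISL1-/- (0.61, adjusted p = 0.0121).

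SOX4 (ENSG00000124766.7, chr6:21593751-21598619), an HMG-box factor, was lowest in WT. It was at 288 and 284 CPM in WT BFP-labelled and 276 and 300 in WT ISL1-labelled libraries. All 17 knockout libraries were higher, at 376 to 517 in ISL1-/-, 480 to 691 in PAX6-/- and 356 to 496 in PDX1-/-. The rise passed in PAX6-/- with the BFP vector (0.81, SE 0.19, edgeR adjusted p = 0.0185), in PAX6-/- with the ISL1 vector (1.02, SE 0.19, adjusted p = 0.00618) and in ISL1-/- with the ISL1 vector (0.74, SE 0.19, adjusted p = 0.037). The last was lost without any 1 of its 5 libraries (adjusted p up to 0.32), the first without PAX6-/- replicate 1 or 3 or either WT library (up to 0.175), and the second without either WT library (up to 0.128). With no filter on low counts all 3 missed the threshold (adjusted p up to 0.23), as did the second when only its own 5 libraries were fitted (adjusted p = 0.351). Without the 2 high-mitochondrial libraries SOX4 passed in all 6 comparisons of a knockout with WT, at 0.37 to 0.86 on the log2 scale.

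**Figure D2:**
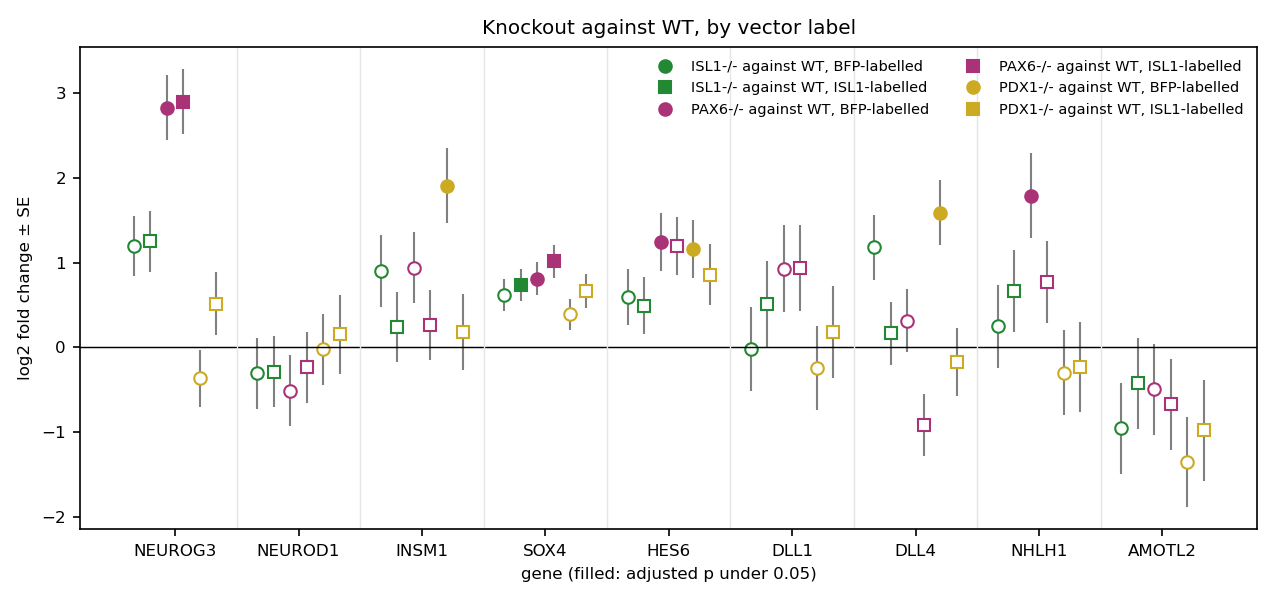
log2 fold change of each gene in each knockout against WT with the same vector (green ISL1-/-, purple PAX6-/-, yellow PDX1-/-; circles BFP-labelled, squares ISL1-labelled), with standard errors from the fit; filled symbols have an adjusted p under 0.05. The largest filled values are NEUROG3 in PAX6-/-, at 2.83 and 2.90, and INSM1 in PDX1-/- BFP-labelled cells, at 1.91.

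INSM1 (ENSG00000173404.5, chr20:20368104-20370949), a zinc-finger repressor needed for endocrine differentiation, was highest in PDX1-/- BFP-labelled cells. Its BFP-labelled values were 633 and 966 CPM in WT, 1402, 1455 and 1623 in ISL1-/-, 1790, 1169 and 1650 in PAX6-/- and 2878, 3053 and 3095 in PDX1-/-. Its ISL1-labelled values were 755 and 599 in WT, 717, 845 and 846 in ISL1-/-, 897, 847 and 702 in PAX6-/- and 1283 and 251 in PDX1-/-. Every BFP-labelled knockout library lay above both WT ones, while among ISL1-labelled libraries the genotypes overlapped. The rise in PDX1-/- against WT with the BFP vector was 1.91 (SE 0.44, 3.76-fold, edgeR adjusted p = 0.0102), and was lost without either WT library (adjusted p up to 0.173). ISL1-/- and PAX6-/- differed from WT by 0.90 (adjusted p = 0.251) and 0.94 (adjusted p = 0.228), and passed without the 2 high-mitochondrial libraries (0.92, adjusted p = 0.00118, and 0.93, adjusted p = 0.000968).

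DLL4 (ENSG00000128917.8, chr15:40929340-40939073), a Delta ligand of Notch best known from sprouting vessels, followed INSM1 except in PAX6-/- cells. There the ratios to WT were 1.92 for INSM1 and 1.25 for DLL4 with the BFP vector. With the ISL1 vector they were 1.20 and 0.531, and none of these differences passed in the fit of all 21 libraries. DLL4 was at 49.9 and 47.9 CPM in WT, 107, 106 and 119 in ISL1-/-, 71.1, 47.6 and 64.1 in PAX6-/- and 156, 152 and 135 in PDX1-/- among BFP-labelled libraries. With the ISL1 vector it was at 46.4 and 39.8 in WT, 38.9, 49.0 and 57.4 in ISL1-/-, 22.9, 27.8 and 17.9 in PAX6-/- and 60.8 and 15.5 in PDX1-/-. It rose in PDX1-/- against WT with the BFP vector by 1.59 (SE 0.39, 3.02-fold, edgeR adjusted p = 0.0144), lost without either WT library (adjusted p up to 0.134). ISL1-/- had a difference of 1.18 (adjusted p = 0.0827), which was 1.20 (adjusted p = 7.7e-05) without the 2 high-mitochondrial libraries. DLL4 was lower in PAX6-/- than in PDX1-/- BFP-labelled cells by a log2 difference of -1.28 (SE 0.33, adjusted p = 0.0442), a call lost without any 1 of the 6 libraries (adjusted p up to 0.22). Among BFP-labelled libraries the sum of 10 endothelial markers was 56.8 to 64.0 CPM in WT, 77.1 to 83.6 in ISL1-/-, 58.3 to 71.4 in PAX6-/- and 44.3 to 51.0 in PDX1-/-. Of the 10, 8 were tested. ESAM (0.99, edgeR adjusted p = 0.0282) and SOX18 (1.49, adjusted p = 0.0394) rose in ISL1-/- against WT, although the median log2 fold change of the 8 there was -0.38. PECAM1, KDR and SOX18 fell in PAX6-/- and in PDX1-/-, where the medians were -1.07 and -1.33. PECAM1, CDH5 and TIE1 had group means of at most 0.418, 1.13 and 0.492 CPM, while KDR averaged 19.2 and CLDN5 29.6 CPM in WT BFP-labelled libraries. The part of endothelial genes in the DLL4 results was not tested.

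Both genes were lower with the ISL1 vector in PDX1-/- cells, INSM1 by a log2 difference of -1.97 (SE 0.44, edgeR adjusted p = 0.00996) and DLL4 by -1.95 (SE 0.40, adjusted p = 0.00547). The 2 ISL1-labelled libraries differed widely in both genes and set the size of the difference. Without replicate 2 it was -3.59 for INSM1 and -3.27 for DLL4, and without replicate 4 it was -1.23 and -1.28. The calls held without any 1 of the 21 libraries, and leaving out each of the 5 PDX1-/- libraries gave edgeR adjusted p-values of at most 0.0307 for INSM1 and 0.0256 for DLL4. Without both high-mitochondrial libraries, which leaves replicate 2 alone in its group, the differences were -1.20 (adjusted p = 0.00368) and -1.25 (adjusted p = 0.00169). They were lost when only these 5 libraries were fitted (adjusted p = 0.311 and 0.291), and in a fit with library quality weights, which gave these 2 ISL1-labelled libraries weights of 0.0917 and 0.0992. In ISL1-/- cells the vector difference was -0.90 for INSM1 (adjusted p = 0.511) and -1.20 for DLL4 (adjusted p = 0.172), and in PAX6-/- cells -0.91 (adjusted p = 0.412) and -1.41 (adjusted p = 0.102). In these 2 genotypes the libraries of the vectors did not overlap for either gene. In ISL1-/- and PAX6-/- cells replicate numbers were taken to pair the libraries because same-numbered ones deviated together. This pairing was drawn from the same data and the labels do not state it. In PDX1-/- and WT cells same-numbered libraries of the 2 vectors did not deviate together (r of -0.365 and -0.05), although the block over all 21 libraries covers them too. A fit with the replicate number as a block called both genes: INSM1 with an edgeR adjusted p of 0.0246 and 0.0238, DLL4 with 0.00583 and 0.00312. On the 6 libraries of each genotype alone, the blocked fit called both genes in ISL1-/- and neither in PAX6-/-, and the block over all 21 libraries took the INSM1 call in PDX1-/- cells to an adjusted p of 0.0578. In WT cells the differences were -0.24 and -0.18, with an adjusted p of 1 for both.

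**Figure D3:**
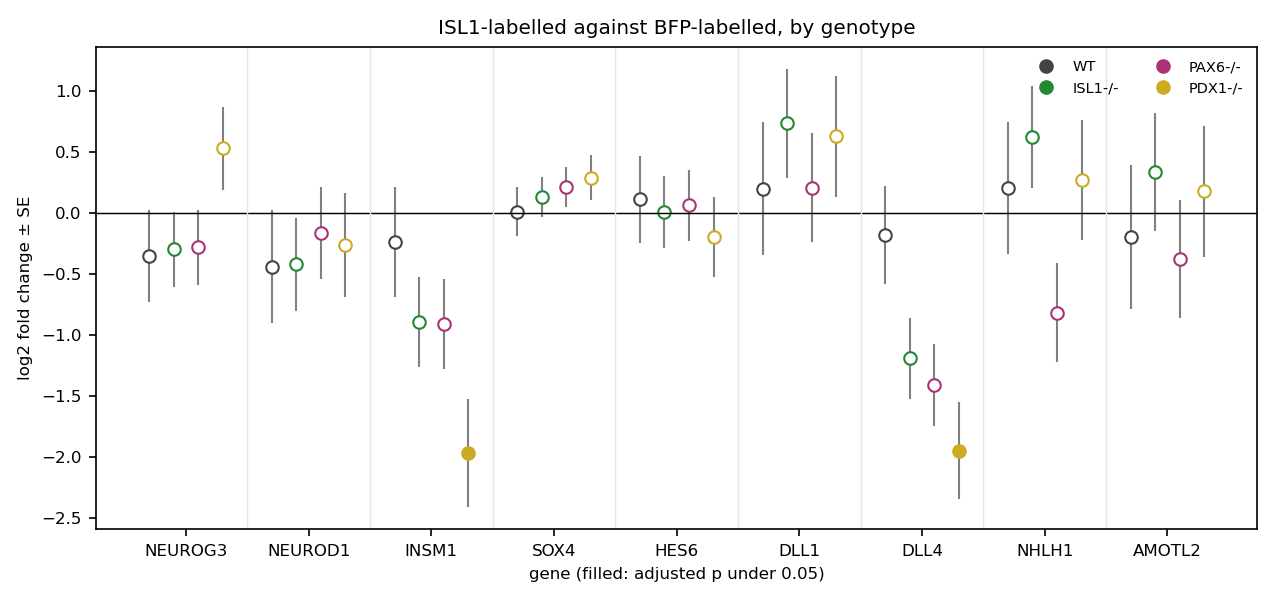
log2 fold change of each gene between ISL1-labelled and BFP-labelled libraries in each genotype, with standard errors; filled symbols have an adjusted p under 0.05. DLL4 and INSM1 in PDX1-/- cells, at -1.95 and -1.97, are the only filled symbols.

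DLL1 (ENSG00000198719.9, chr6:170282206-170306565), the Delta ligand of endocrine progenitors, did not follow DLL4. In BFP-labelled libraries it was at 32.9 and 38.5 CPM in WT, 33.4, 32.4 and 39.9 in ISL1-/-, 77.2, 63.6 and 63.4 in PAX6-/- and 34.8, 30.3 and 25.3 in PDX1-/-. The ISL1-labelled values were 48.1 and 33.8 in WT, 62.2, 53.8 and 59.4 in ISL1-/-, 112, 82.1 and 41.1 in PAX6-/- and 80.9 and 11.8 in PDX1-/-. The BFP-labelled PAX6-/- libraries were above all other BFP-labelled ones, with a difference from WT of 0.93 (SE 0.51, edgeR adjusted p = 0.354). Without the 2 high-mitochondrial libraries, which held the lowest DLL1 value of their groups, DLL1 passed in PAX6-/- against WT with the BFP vector (0.92, adjusted p = 0.00115) and with the ISL1 vector (1.23, adjusted p = 0.000431), and was higher with the ISL1 vector in ISL1-/- (0.70, adjusted p = 0.0136) and PDX1-/- cells (1.45, adjusted p = 0.000216). DLL1 shares 370 exonic bases with FAM120B on the opposite strand. FAM120B held 715 to 5309 counts against 398 to 5779 for DLL1. The libraries do not mark strand, so reads of the shared bases cannot be told apart by strand. DLL1 values are uncertain by these reads, and so are NEUROG3 values by those of its own shared bases.

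AMOTL2 (ENSG00000114019.15, chr3:134355347-134375479) was called in no comparison. Its BFP-labelled values were 115 and 74.2 CPM in WT, 63.1, 49.6 and 33.5 in ISL1-/-, 66.6, 79.7 and 55.3 in PAX6-/- and 54.1, 25.5 and 31.6 in PDX1-/-. Its ISL1-labelled values were 77.1 and 87.5 in WT, 79.1, 57.7 and 47.3 in ISL1-/-, 77.4, 62.3 and 15.4 in PAX6-/- and 64.2 and 19.3 in PDX1-/-. The difference from WT with the BFP vector was -0.96 in ISL1-/- (edgeR adjusted p = 0.354), -0.49 in PAX6-/- (0.707) and -1.35 in PDX1-/- (0.128). The first and last passed without the 2 high-mitochondrial libraries (-0.94, adjusted p = 0.0331, and -1.37, adjusted p = 0.00259). Those 2 libraries had the lowest AMOTL2 values of all 21, at 15.4 and 19.3 CPM.

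How many of the 9 genes passed in each comparison was read against all genes tested. The comparisons share their WT or BFP-labelled libraries and are given side by side. With the BFP vector 4 of 9 rose in PAX6-/- against WT (NEUROG3, SOX4, HES6 and NHLH1), beside 2.25% of all genes higher and 5.51% called in either direction, and 3 of 9 rose in PDX1-/- (INSM1, HES6 and DLL4), beside 4.03% higher and 9.68% called. None of the 9 passed in ISL1-/-, beside 5.59% of all genes. There 4 had an unadjusted p under 0.05 by edgeR, DESeq2 called 3 (NEUROG3, SOX4 and DLL4), limma-voom with quality weights called 6, and edgeR called 6 without the 2 high-mitochondrial libraries. The median log2 fold change of the 9 was 0.93 in PAX6-/-, 0.60 in ISL1-/- and -0.02 in PDX1-/-, with medians over all genes tested of 0.03, 0.02 and 0.03.

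With the ISL1 vector SOX4 alone rose in ISL1-/- (1 of 9, beside 1.02% of all genes higher and 3.72% called), and NEUROG3 and SOX4 rose in PAX6-/- (2 of 9, beside 1.26% higher and 3.56% called). None passed in PDX1-/-, beside 0.634% of all genes. There 2 had an unadjusted p under 0.05 by edgeR, DESeq2 called 1 (SOX4), limma-voom called 0, and 3 passed without the 2 high-mitochondrial libraries (INSM1, SOX4 and DLL1). Between knockouts with the BFP vector, NEUROG3 was the 1 gene higher in PAX6-/- than ISL1-/- (1.7% of all genes higher, 2.46% called). NEUROG3 and NHLH1 were higher and DLL4 lower in PAX6-/- than PDX1-/- (1.52% higher, 1.52% lower, 3.04% called). NEUROG3 was the 1 gene lower in PDX1-/- than ISL1-/- (2.73% lower, 5.07% called).

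Between vectors, 2 of 9 genes were lower with ISL1 in PDX1-/- cells, beside 4.33% of all genes lower and 12.5% called. In WT cells none passed, beside 0.027% of all genes, and edgeR at an unadjusted p under 0.05, DESeq2 and limma-voom each called 0. In ISL1-/- cells none passed (0.382% of all genes called), 2 had an unadjusted p under 0.05, DESeq2 called 1 (DLL4) and limma-voom called 3 (INSM1, DLL1 and DLL4). In PAX6-/- cells none passed (0.355% called), 2 had an unadjusted p under 0.05, DESeq2 called 1 (DLL4) and limma-voom called 5. Whether the vector difference itself differed from that in WT was tested by the interaction, and none of the 9 passed for ISL1-/- (0.00386% of all genes called, 0 of the 9 at an unadjusted p under 0.05, DESeq2 0, limma-voom 1), PAX6-/- (0% called, 1 of the 9 unadjusted, DESeq2 0, limma-voom 1) or PDX1-/- (1.19% called, 2 of the 9 unadjusted, DESeq2 1, limma-voom 0). The largest of these differences was DLL4 in PDX1-/- cells, at -1.77 (SE 0.55, edgeR adjusted p = 0.13).

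How the genes varied together was described over the 21 libraries, which share groups and sequencing depth, by Pearson's r of log2 CPM and with no test. The tightest pair was INSM1 and DLL4 (r = 0.867, and 0.924 for deviations from group means), followed by DLL1 and NHLH1 (0.832 and 0.759). For levels NEUROG3 had an r of 0.761 with SOX4, 0.754 with NHLH1, 0.000608 with INSM1 and -0.261 with NEUROD1. Deviations from group means gave another order, 0.382, 0.196, 0.251 and 0.649. DLL1 with NEUROD1 gave -0.746 for levels and -0.683 for deviations, and HES6 with AMOTL2 -0.714 and -0.807. Of the 36 pairs 21 were positive, with a median of 0.08. Over the 19 libraries left without the high-mitochondrial ones INSM1 and DLL4 had an r of 0.84 for levels, DLL1 and NHLH1 0.768, NEUROG3 and SOX4 0.72, NEUROG3 and NHLH1 0.847, DLL1 and NEUROD1 -0.754 and HES6 and AMOTL2 -0.573. The deviations from group means rested partly on those 2 libraries: without them they gave 0.586 for INSM1 with DLL4, 0.247 for DLL1 with NHLH1 and -0.441 for HES6 with AMOTL2. DLL1 with NEUROD1 then turned sign to 0.457. NEUROG3 then had 0.774 with NEUROD1, 0.658 with INSM1, 0.369 with NHLH1 and -0.085 with SOX4.

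**Figure D4:**
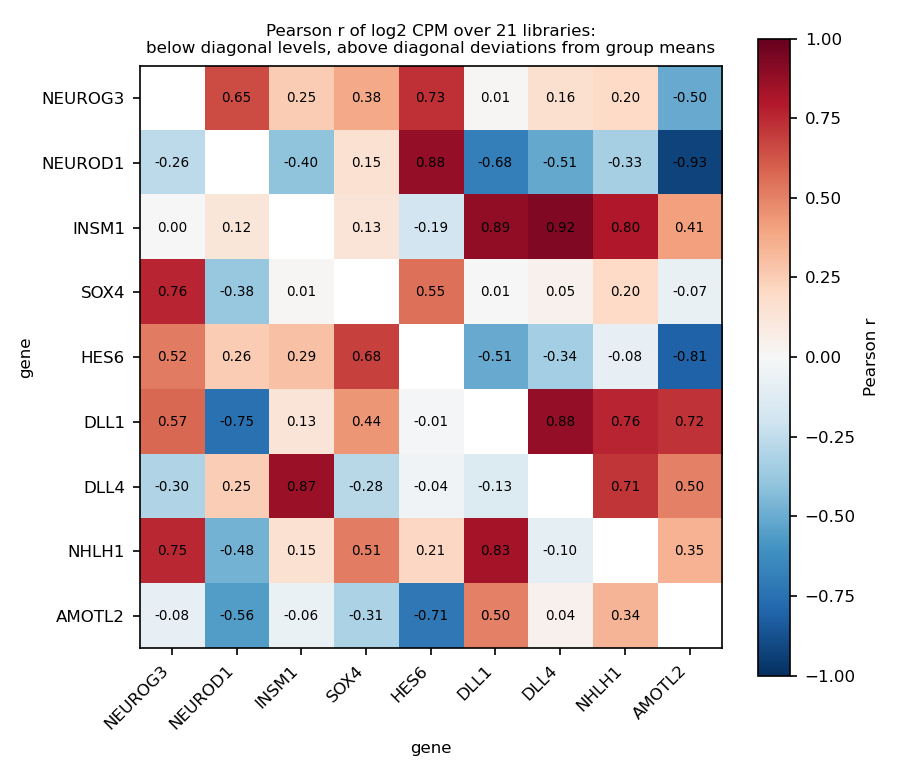
Pearson's r of log2 CPM between the 9 genes over 21 libraries; below the diagonal for levels, above it for deviations from group means. INSM1 with DLL4 and DLL1 with NHLH1 are the strongest positive pairs, at 0.87 and 0.83 for levels.

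Of 18 other genes of the NEUROG3 programme, 5 rose and 1 fell in PAX6-/- against WT with the BFP vector. NKX2-2, a homeodomain factor of early endocrine cells, rose by 1.95 (SE 0.46, edgeR adjusted p = 0.0187), LMX1B by 1.55 and the zinc-finger factor ST18 by 1.49, PAX4 and SOX11 rose by 1.13 and 0.77, and the cell-cycle inhibitor CDKN1A fell by 1.40. In PDX1-/- 5 rose: NKX2-2 rose by 1.97, the serotonergic factor FEV by 1.91, LMX1B by 1.64, MYT1 by 1.56 and RFX3 by 0.85. In ISL1-/- SOX11 rose by 0.76 and CDKN1A fell by 1.93. With the ISL1 vector in PDX1-/- cells 5 of the 18 fell, among them MYT1 by 1.79, LMX1B by 1.45 and NKX2-2 by 1.40, and SOX11 rose by 0.75. The median over the 18 genes was 0.72 in PAX6-/-, 0.61 in PDX1-/- and 0.17 in ISL1-/-.

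Other Notch components were read beside the share of all genes called against WT with the BFP vector. That share was 5.59% in ISL1-/-, 5.51% in PAX6-/- and 9.68% in PDX1-/-. Of 14 other ligands, receptors and modifiers none passed in PAX6-/- against WT with the BFP vector, the ligand DNER rose in ISL1-/- (1.51, SE 0.41, edgeR adjusted p = 0.0406), and in PDX1-/- the Fringe enzymes LFNG and MFNG rose by 1.88 and 1.49 and the Delta-like DLK1 fell by 1.95. Of 14 genes of receptor cleavage and the transcription complex, none passed in ISL1-/- or PAX6-/- and APH1B alone rose in PDX1-/- (0.88). Of 8 Notch targets HEYL fell by 2.41 and HEY2 by 1.05 in PAX6-/-, while in PDX1-/- HEYL fell by 2.50 and HEY1 rose by 1.17, and none passed in ISL1-/-. HES1, the target known to repress NEUROG3, passed in no knockout against WT. It rose with the ISL1 vector in PDX1-/- cells by 1.77 (SE 0.30, adjusted p = 0.00197), where HEY2 rose by 1.05 and HEY1 fell by 1.61.

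Of 14 Hippo-pathway genes, WWTR1, which encodes TAZ, fell in all 3 knockouts against WT with the BFP vector (by 1.79 in ISL1-/-, 1.41 in PAX6-/- and 1.98 in PDX1-/-, edgeR adjusted p = 0.0112, 0.0428 and 0.00416). CCN1, a YAP1 target, fell by 3.35 in ISL1-/- and 2.65 in PDX1-/-, and ANKRD1 and LATS2 fell by 3.46 and 1.76 in PDX1-/-. AMOTL2 and the sum of the 14 genes had an r of 0.806 over the 21 libraries, and 0.908 over the 19 left without the high-mitochondrial ones.

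Markers of enterochromaffin cells, which make serotonin and appear beside beta cells in these cultures, moved with INSM1 and DLL4. Their sum over 6 genes was 567 to 654 CPM in WT, 1528 to 1976 in ISL1-/-, 896 to 1303 in PAX6-/- and 2421 to 2656 in PDX1-/- BFP-labelled libraries. With the ISL1 vector it was 380 to 428, 677 to 851, 385 to 459 and 495 to 873 in the same order. Against WT with the BFP vector 4 of 6 rose in ISL1-/- and in PDX1-/- and 1 of 6 in PAX6-/-. TPH1, the rate-limiting enzyme of serotonin synthesis, rose by 2.08 in ISL1-/- and 3.39 in PDX1-/-, and SLC18A1 and LMX1A rose in both. With the ISL1 vector 5 of 6 fell in PDX1-/- cells, and DDC fell in all 3 knockouts (by 1.04, 1.34 and 1.35). DLL4 and this sum had an r of 0.917 over 21 libraries (0.944 over 19 without the high-mitochondrial ones) and INSM1 and the sum 0.867. The part of these cells in the INSM1 and DLL4 results was not tested.

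**Figure D5:**
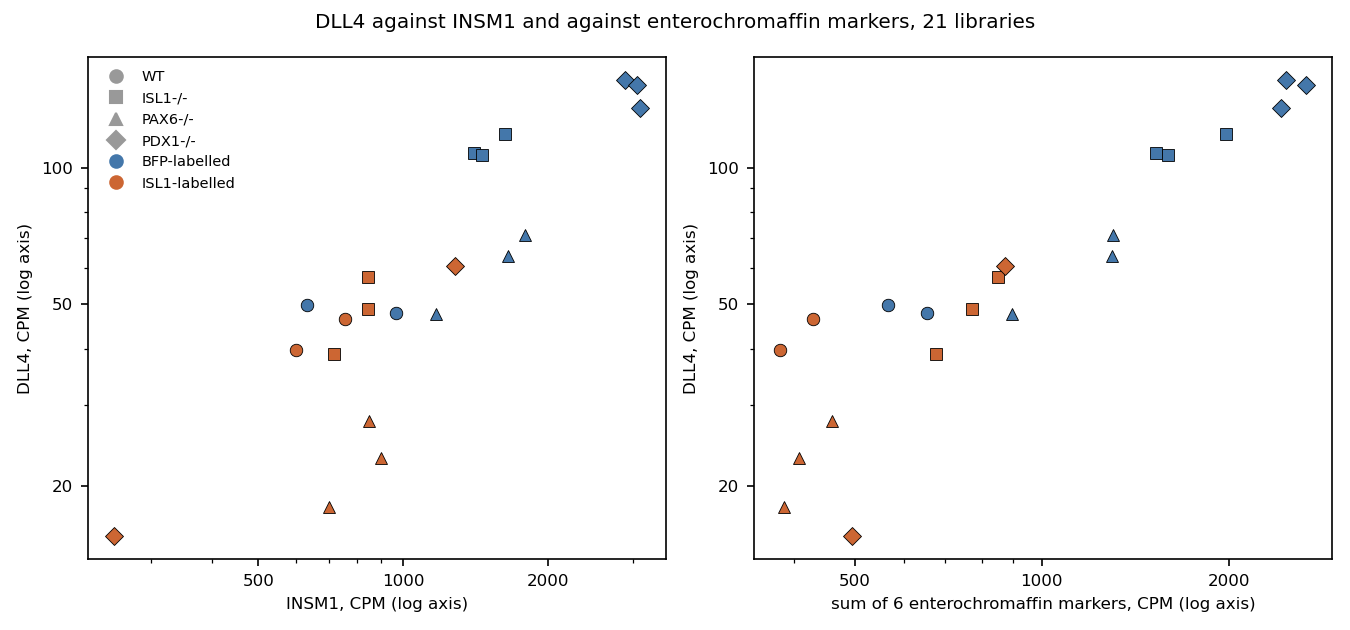
DLL4 against INSM1 (left) and against the summed level of 6 enterochromaffin markers (right) in the 21 libraries, in CPM on log axes; symbols give the genotype and colours the vector. PDX1-/- BFP-labelled libraries sit at the upper right of both panels, with DLL4 at 135 to 156 CPM and INSM1 at 2878 to 3095 CPM.

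Other cell markers also differed between the groups compared. Mesenchymal markers summed to 1631 and 1879 CPM in the WT ISL1-labelled libraries and 220 and 1236 in the WT BFP-labelled ones, against 101 to 924 in the knockouts, and none of the 8 passed between a knockout and WT or between vectors. PDGFRB, a receptor of mesenchymal cells, was lower in PDX1-/- than in ISL1-/- BFP-labelled cells (log2 difference -2.58, edgeR adjusted p = 0.0378). The neuronal genes TUBB3 and ELAVL3 rose in all 3 knockouts against WT with the BFP vector (TUBB3 by 1.69, 1.93 and 1.39). NEUROG1, a relative of NEUROG3, rose in ISL1-/- (3.46), where it averaged 14.6 CPM. In PAX6-/- cells ghrelin (GHRL) rose by 5.36. The sum of 13 granins, processing enzymes and hormones was 20320 to 33850 CPM in PAX6-/- BFP-labelled libraries and 27680 to 36850 in ISL1-/- ones. It was 63370 to 72880 in PDX1-/- and 66150 to 84650 in WT BFP-labelled libraries. The part of these differences in the results for the 9 genes was not tested.

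The genes most like NEUROG3 over the 21 libraries, among 10877 with a mean of at least 10 CPM, were C11orf87 (r = 0.927), VSTM2L (0.904), SLC2A1 (0.887), ENSG00000268362 (0.886) and FBXO32 (0.884). Those most like NEUROD1 were SLC35G2 (0.934), SLC3A2 (0.931), TUBA4A (0.924), CDIPT (0.92) and H2AC6 (0.914). The lists share no gene.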

How the data were processed

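The authors deposited 1 table of raw read counts per gene; per the submitters' processing notes reads were handled with STAR 2.7.11b and featureCounts 2.1.1 on GRCh38, and per the labels' protocols libraries were made from total RNA with SMART-Seq v4, which does not mark strand. Strand settings are not given in the sources used here. ANK2, whose entry is broken over 3 lines, was left out. Counts were scaled by TMM, genes with low counts were removed by edgeR's group-based filter (minimum count 10, minimum total 15), and 25884 genes were fitted in all 21 libraries with edgeR 4.0.16 (quasi-likelihood, 1 coefficient per group). P-values were adjusted by Benjamini-Hochberg over all genes tested. CPM are counts scaled to a TMM-adjusted library total of 1000000. The script was tested on simulated data. Alternatives were DESeq2 1.42.0 with its size factors, limma 3.58.1 voom with quality weights, no filter, a replicate block, fits on only the groups compared and libraries left out. Replicate numbers were taken to pair libraries in the vector comparisons of ISL1-/- and PAX6-/-, where same-numbered libraries deviated together (r of 0.428, 0.272 and 0.61, and 0.25, 0.511 and 0.525). Elsewhere there were fewer than 3 pairs a comparison, with r from -0.487 to 0.494. The genes and lists were chosen with earlier results of these data known. Named genes of other lists were at most 3 called genes a direction, ranked by fold change, at 1 CPM or more in the higher group; the 5 genes most like NEUROG3 and NEUROD1 were taken by r; any other gene was chosen after its values were seen. One result in the NEUROG3 programme list is not reported here. Promoter sequences are RefSeq's.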

Additional observations from a re-analysis of the deposited data

How the results depend on the processing

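Scaling by DESeq2's size factors within edgeR left every count of called genes unchanged in the 17 comparisons. No called gene reversed its direction under any alternative. With no filter on low counts the number of the 9 genes called was 1 for the vector in PAX6-/-, 1 in ISL1-/- against WT with the BFP vector, and 2 and 1 in PAX6-/- against WT with the BFP and ISL1 vectors. DESeq2 gave 1 for the vector in ISL1-/-, 1 for the vector in PAX6-/-, 3 in ISL1-/- against WT with the BFP vector, 2 with the ISL1 vector, 1 in PDX1-/- against WT with the ISL1 vector, 1 for the PDX1-/- interaction and 2 in PAX6-/- against ISL1-/-.

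Fitting only the groups compared gave 3 for the vector in ISL1-/-, 0 for the vector in PDX1-/-, 6 and 5 in ISL1-/- and PDX1-/- against WT with the BFP vector, 4 and 0 in ISL1-/- and PAX6-/- against WT with the ISL1 vector, and 5, 7 and 4 for PAX6-/- against ISL1-/-, PAX6-/- against PDX1-/- and PDX1-/- against ISL1-/-. Limma-voom with quality weights gave 3, 5 and 0 for the vector in ISL1-/-, PAX6-/- and PDX1-/-, 6 and 5 in ISL1-/- and PDX1-/- against WT with the BFP vector, 3 and 6 in ISL1-/- and PAX6-/- against WT with the ISL1 vector, 1 for the ISL1-/- and 1 for the PAX6-/- interaction, and 5, 6 and 4 between knockouts in the order above. Without both high-mitochondrial libraries the counts were 3, 3 and 4 for the vector in ISL1-/-, PAX6-/- and PDX1-/-, 6 and 5 in ISL1-/- and PDX1-/- against WT with the BFP vector, 3, 6 and 3 in ISL1-/-, PAX6-/- and PDX1-/- against WT with the ISL1 vector, 1 for the PDX1-/- interaction, and 5, 7 and 3 between knockouts. The cause was not tested. The number of all genes called also depends on the fit. In ISL1-/- against WT with the BFP vector DESeq2 called 2419 genes and edgeR 1448. No share of all genes called is given for the alternatives, here or above, so their counts are not read as results about the 9 genes.

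With the replicate number as a block, counts were 2 for the vector in ISL1-/- and 2 in PAX6-/-, 4 and 2 in ISL1-/- against WT with the BFP and ISL1 vectors, and 4, 5 and 2 between knockouts. This fit leaves PDX1-/- ISL1-labelled replicate 4 as the only library of its number, so it adds nothing to the comparisons. A block fit on only the 6 libraries of each vector comparison, added after the data were seen, called 6 in ISL1-/- and 0 in PAX6-/-. The labels do not state that same-numbered libraries are paired in any comparison.

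Leaving out 1 library at a time, which leaves a lone sample in some groups that is assumed to vary like the others, gave 0 to 0 called genes for the vector in WT and for the ISL1-/- and PAX6-/- interactions, 0 to 2 for the vector in ISL1-/- and in PAX6-/-, and 2 to 3 in PDX1-/-. Against WT with the BFP vector it gave 0 to 4 in ISL1-/-, 1 to 5 in PAX6-/- and 0 to 4 in PDX1-/-, and with the ISL1 vector 0 to 2, 1 to 4 and 0 to 5. It gave 0 to 3 for the PDX1-/- interaction, 1 to 3, 1 to 5 and 1 to 2 between knockouts, and 4 to 7 for any difference among groups. The highest counts mostly came without PDX1-/- ISL1-labelled replicate 2 or replicate 4; without replicate 2 alone 5 genes passed in PDX1-/- against WT with the ISL1 vector and 3 in the PDX1-/- interaction. Without either WT BFP-labelled library the count in PDX1-/- was 0. Depth limits NHLH1 most, at 5 to 117 counts a library.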

Other observations

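Of 10 genes of dividing cells 8 were lower in PDX1-/- than in ISL1-/- BFP-labelled cells, with a median log2 difference of -1.70 over the 10. There INSM1 and DLL4 differed by 1.01 and 0.41 and missed the threshold (edgeR adjusted p = 0.135 and 0.582). None of the 10 passed in PAX6-/- against PDX1-/- BFP-labelled cells, where their median was 1.05 and DLL4 was lower. CCNA2 and CDK1 fell by 1.24 and 1.12 on the log2 scale in PDX1-/- against WT with the BFP vector (adjusted p = 0.0237 and 0.0268), and 5 rose with the ISL1 vector in PDX1-/- cells, the kinase gene AURKB by 2.17 and BIRC5 by 1.66. The sum of the 10 genes was 253 to 324 CPM in PDX1-/- BFP-labelled libraries and 473 and 733 in PDX1-/- ISL1-labelled ones. It was 660 to 945 in ISL1-/- BFP-labelled libraries and 399 and 614 in WT BFP-labelled ones. The part of dividing cells in the INSM1 and DLL4 results was not tested. Of 8 markers of pancreatic progenitors and duct, NKX6-1, a homeodomain factor of progenitors and beta cells, rose by 2.38 and the secreted phosphoprotein SPP1 fell by 2.77 in PDX1-/- against WT with the BFP vector. The vector moved both the other way in PDX1-/- cells, NKX6-1 to a log2 difference of -2.76 and SPP1 to 3.65. The sum of the 8 markers was 1263 CPM in PDX1-/- ISL1-labelled replicate 2 and 3121 in replicate 4, which has a high mitochondrial share. Of 10 endothelial markers, of which 8 were tested, 3 were lower in PAX6-/- and in PDX1-/- against WT with the BFP vector. KDR, a VEGF receptor, averaged 19.2 CPM in WT and 2.37 and 2.19 in these knockouts.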
